A study of Bos taurus with 22 samples.

Results

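Subcutaneous adipose tissue (backfat) of 6 Charolais (CHAR) steers was compared with that of 8 Kinsella composite (KC) steers, which together are 14 of the 22 steers sequenced in the study. Members were chosen by the breed in the sample labels, and the levels of the 8 Angus (ANG) steers are given as a description, with these steers in the fit under 1 alternative (all 22 steers) and in no other test. Charolais is a large, late-fattening beef breed. KC is a crossbred beef herd that the labels describe as Hereford by Angus, whereas the study's methods describe sires of several breeds, Charolais among them, on a composite dam line with Hereford, Angus and Holstein in it. KC steers may therefore carry some Charolais ancestry, and the labels do not give the ancestry of a single steer. All steers were castrated males fed a finishing diet in a feedlot, backfat was taken shortly after slaughter, and neither the age nor the birth year of a steer is in the labels. Steers had been selected for extreme residual feed intake adjusted for backfat (RFIfat, in kg), the feed eaten beyond that expected from growth and fatness, so that an L-RFI steer is efficient and an H-RFI steer is not. Each RFI group held 3 CHAR and 4 KC steers. In H-RFI steers, RFIfat was 0.69 to 1.1 kg in CHAR and 0.54 to 2.03 kg in KC. In L-RFI steers, it was -1.03 to -0.96 kg in CHAR and -1.77 to -0.8 kg in KC, so that RFIfat was not matched between the breeds within a group. Each steer was a separate animal with 1 library.

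White adipose tissue stores triacylglycerol in adipocytes and releases fatty acids on demand, and the balance of Wnt, activin and bone morphogenetic protein signals governs how progenitors in its stroma become adipocytes. Adipocytes share the tissue with fibroblast progenitors, blood and lymph vessels, nerves, mast cells and other immune cells, and backfat lies next to skeletal muscle. Breeds of cattle differ in how early and how much they deposit subcutaneous fat, and the question addressed was which genes differ in this tissue between CHAR and KC steers, and whether they do so in both RFI groups.

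Reads counted on genes numbered 8983641 to 12188113 per CHAR steer (median 9937252) and 8033008 to 12426133 per KC steer (median 10498714). A gene with 3 counts, the detection floor used here, stood at 0.241 to 0.373 CPM (counts per 1e6 counts on all genes) depending on the steer, and this floor reflects counting error alone. Total counts did not differ beyond the spread between steers (exact permutation p = 0.998, 2-sided), nor did the number of genes above 1 CPM, at 13451 to 13754 in CHAR and 13503 to 13761 in KC (exact permutation p = 0.749). The share of uniquely aligned reads that fell on genes was 34.3% to 39.9% in CHAR and 37.2% to 41.4% in KC (exact permutation p = 0.102), and it was lower in CHAR with an exact permutation p of 0.0389 when F48 was left out. The share of aligned reads that overlapped more than 1 gene, and so was counted on none, was 1.2% to 2.16% in CHAR (median 1.73%) and 0.303% to 1.55% in KC (median 1.01%). That difference was larger than the spread between steers (exact permutation p = 0.00866), although the measure was chosen after its values were seen. The shares fell into separate ranges, at 0.303% to 0.463% in the KC steers F8, F10 and F14 and 0.938% or more in the other 11 steers, so that the low range held KC steers alone among the 14, and 3 ANG steers were low as well (0.37% to 0.512%). No label gives a reason for this split, and its part in the results was not tested beyond refitting the counts and the named genes without F8, F10 and F14.

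**Figure D1:**
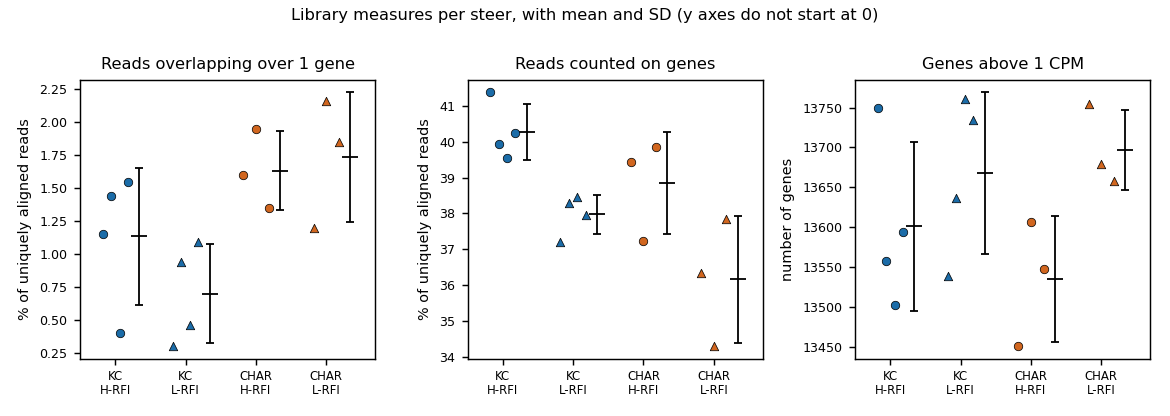
Share of uniquely aligned reads overlapping more than 1 gene (%), share counted on genes (%) and number of genes above 1 CPM, for each KC (blue) and CHAR (orange) steer, with circles for H-RFI and triangles for L-RFI and bars for mean and SD. Ambiguous reads made up 1.2% to 2.16% of the CHAR libraries and 0.303% to 1.55% of the KC libraries.

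Principal components of log2 CPM over the genes tested placed most CHAR steers apart from the KC steers on the first component, which held 23.4% of the variance, and the KC steers, but not the CHAR steers, were ordered by RFI group on it. Its scores were -43 to -18.8 in the 4 H-RFI KC steers and -12.2 to 13.7 in the 4 L-RFI KC steers. Of the CHAR steers, 5 lay between 15 and 30, and F48, an H-RFI steer, lay at -3.88 among the KC steers. The second component held 12.9%. KC steer F11 stood apart in muscle genes (below), and counts are given without F48 and F11 where that changed them.

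**Figure D2:**
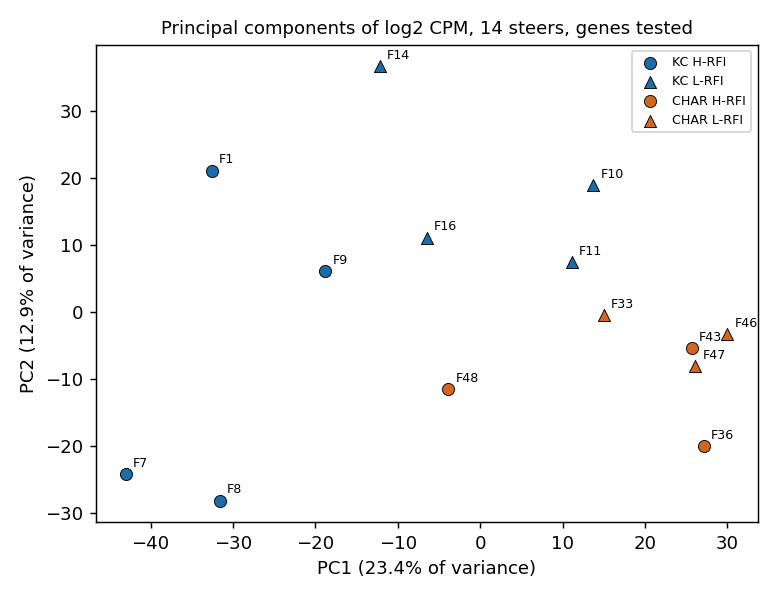
Scores of the 14 steers on the first (23.4% of variance) and second (12.9%) principal components of log2 CPM, with KC in blue, CHAR in orange, circles for H-RFI and triangles for L-RFI. H-RFI KC steers lie on the left and 5 of the CHAR steers on the right, with F48 at -3.88 on the first component.

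Of the 24616 genes in the deposited table, 13816 exceeded 1 CPM in 6 or more steers and were tested, with edgeR's quasi-likelihood test and RFI group as a covariate. Log2 fold changes (log2FC) are CHAR minus KC, and levels of single genes are CPM after TMM normalization. At a Benjamini-Hochberg FDR below 0.1, 1985 genes differed between the breeds (14.4% of those tested), of which 933 were higher (6.75%) and 1052 lower (7.61%) in CHAR. With an absolute log2FC of at least 1 as a second limit, 208 genes were called differentially expressed (1.51%), 47 higher (0.34%) and 161 lower (1.17%) in CHAR. Genes lower in CHAR thus made up 53% of the calls at FDR alone and 77.4% of those with the fold limit. Most differences were small, with a median absolute log2FC of 0.48 over the 1985 genes and 0.18 over all genes tested, while the median signed log2FC over all genes was 0.00098.

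Genes called with the fold limit were mostly of low level, whereas those at FDR alone were not. Of the 161 called lower in CHAR, 113 were among the 4606 genes of lowest mean level (up to 11.3 CPM), 29 among the next 4605 and 19 among the 4605 of highest level (38.8 CPM and above). Of the 47 called higher in CHAR, 33, 11 and 3 fell into these classes. At FDR alone, the classes held 472, 708 and 805 of the 1985 genes. Steers of the breeds did not overlap at all for 276 genes (2% of those tested), 39 of them among the 208. Leaving out CHAR steer F43 lowered the 208 calls to 138, and leaving out both F48 and F11 raised them to 317. At FDR alone, the 1985 genes became 1132 without F36, 1102 without F43 and 945 without F8, F10 and F14.

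Of the 13816 genes tested, 238 could be given a symbol, because the deposited table holds Ensembl identifiers only and the sources used pair 242 of them with names. The study had picked these 242 genes for differences between RFI groups within breeds in these same steers, so they are no random sample of the genes, and their breed differences are not independent of that choice in the KC and CHAR steers. At FDR below 0.1, 32 of the 238 differed between CHAR and KC (13.4%, against 14.4% of all genes tested), 7 higher and 25 lower in CHAR. With both limits, 17 were called (7.14%, against 1.51%), 4 higher and 13 lower. Their median log2FC was -0.28. The remaining 191 of the 208 called genes have no name here.

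SFRP4 and LGR5 were called lower in CHAR. SFRP4 was the called member of the 2 tested genes of the list of adipogenic signals and regulators. LGR5 was on no list, and genes of Wnt signals were not tested as a group. SFRP4 (ENSBTAG00000015366), a secreted protein that binds Wnt ligands and is released by adipose tissue, stood at 26.2 to 69.7 CPM in CHAR (median 36.6) and 60.5 to 231 CPM in KC (median 134). Of the 6 CHAR steers 5 lay below the lowest KC steer, and the log2FC was -1.67 ± 0.32 (SE), with an edgeR FDR of 0.00969 and an exact permutation p of 0.000999. ANG steers ranged from 23.5 to 156 CPM (median 74.6). LGR5 (ENSBTAG00000013256), a receptor for R-spondins, which strengthen Wnt signals, was near the detection floor at 0.111 to 1.54 CPM in CHAR (median 0.384) and 0.53 to 2.69 CPM in KC (median 1.43), with a log2FC of -1.51 ± 0.40 and an FDR of 0.0342. Of the CHAR steers 3 lay below the lowest KC steer and F33 lay among the highest KC steers. F33 was also the only CHAR steer above 1 CPM, so that LGR5 passed the filter mainly through KC, where it is high. LGR5 missed the FDR limit with all 22 steers in the fit, without the RFI term and without F48 and F11 together. BMP7, a bone morphogenetic protein and the other tested member of a list of 31 adipogenic signals and regulators, of which 3 have an identifier here and 2 were tested, was at 1.44 to 17.4 CPM in CHAR and 6.05 to 20.3 CPM in KC (FDR 0.48).

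At FDR alone, METRNL was lower and ACVR1C higher in CHAR, and FSTL3 did not pass. These genes were not tested as a group. METRNL (ENSBTAG00000004787), a secreted adipokine, was at 34.8 to 91.4 CPM in CHAR (median 42.3) and 34.6 to 173 CPM in KC (median 94.9), with a log2FC of -0.98 ± 0.26 and an FDR of 0.0328. The high CHAR value was that of F48. Within H-RFI steers METRNL was at 98.1 to 173 CPM in KC and 41.8 to 91.4 CPM in CHAR. Within L-RFI steers the breeds overlapped, at 34.6 to 91.6 CPM in KC and 34.8 to 42.9 CPM in CHAR. ACVR1C (ENSBTAG00000019337), an activin-type receptor abundant in adipocytes, was higher in CHAR, at 15 to 32.5 CPM (median 21.1) against 6.85 to 21.8 CPM in KC (median 9.94), with a log2FC of 0.88 ± 0.26 and an FDR of 0.0527. In 5 of the 8 KC steers it was below the lowest CHAR steer, but the FDR rose to 0.12 without F36, 0.109 without F43, 0.105 without F46 and 0.117 with all 22 steers in the fit. FSTL3, a secreted inhibitor of activins and 1 of 18 growth and body size genes on a list with only this member tested, had medians of 15.9 CPM in CHAR and 29 CPM in KC and an FDR of 0.303, which was 0.0852 without F48 and F11. METRNL and ACVR1C were named after their values were seen, as were the other genes below that passed the FDR limit alone.

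KLF16, ZNF324 and NFATC2 were called lower in CHAR. KLF16 (ENSBTAG00000038055), a zinc finger transcription factor of the Krüppel-like family, was at 0.444 to 1.94 CPM in CHAR (median 1.39) and 2.76 to 10.4 CPM in KC (median 4.64), so that every CHAR steer lay below every KC steer. Its log2FC was -1.99 ± 0.28, with an FDR of 0.00132. KLF16 was named first because its groups do not overlap, so that this separation is part of its choice. ANG steers spanned 0.815 to 4.34 CPM (median 2.96). ZNF324 (ENSBTAG00000039453), a zinc finger protein, was at 2.26 to 3.33 CPM in CHAR and 2.73 to 14.6 CPM in KC, with 6 of 8 KC steers above the highest CHAR steer (log2FC -1.20 ± 0.30, FDR 0.0264). NFATC2 (ENSBTAG00000018270), a transcription factor switched on by calcineurin, was at 6.09 to 27.8 CPM in CHAR (median 9.98) and 7.39 to 59.7 CPM in KC (median 30.2). It had a log2FC of -1.23 ± 0.32 and an FDR of 0.0321, which was 0.105 without the RFI term, and the exact permutation p, which leaves RFI out, was 0.0596. ZNF84, another zinc finger protein, was higher in CHAR at FDR alone, at 5.98 to 9.26 CPM against 1.89 to 8.2 CPM in KC (log2FC 0.74 ± 0.24, FDR 0.076). The call of ZNF84 was lost without F1, F7, F8, F36, F43, F47 or F48, with FDR up to 0.175, and with the exact test, without the RFI term, without F48 and F11 together and without F8, F10 and F14 (FDR up to 0.177).

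FOSL1 and ARC, immediate early genes that encode a subunit of AP-1 and a cytoskeletal protein first known from active neurons, were called lower in CHAR with less stable support. FOSL1 (ENSBTAG00000006194) was the single tested member of a list of 23 immediate early genes. It had no count in F46 (a floor of 0.278 CPM), a median of 0.244 CPM in CHAR and 1.6 CPM in KC, and 4.21 CPM in F48, above 5 of the 8 KC steers. KC steers themselves ranged from 0.096 to 11.4 CPM, with the 4 highest values in H-RFI steers. Its log2FC was -2.17 ± 0.72 at an FDR of 0.0796, the exact permutation p was 0.0926, and the FDR rose above the limit, up to 0.182, without F7, F8, F16, F36, F43, F46 or F47. The FDR of FOSL1 was also above the limit with the exact test (0.212), without the RFI term, with RFIfat in kg as the term and without F8, F10 and F14. ARC (ENSBTAG00000021639) was at 0.111 to 2.22 CPM in CHAR and 0.552 to 12.9 CPM in KC (log2FC -1.49 ± 0.51, FDR 0.0838, exact permutation p = 0.0616), and its FDR reached up to 0.197 without F7, F8, F16, F36, F43, F47 or F48. ARC also missed the limit without the RFI term (0.104) and without F48 and F11 together (0.12).

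Genes of sterol synthesis were represented by 3 of 20 list members, and 1 of them was lower in CHAR and none was higher. SQLE (ENSBTAG00000005498), the squalene monooxygenase that acts early in the sterol branch, was at 8.18 to 20.9 CPM in CHAR (median 12) and 11.4 to 58.8 CPM in KC (median 27.1), with 5 KC steers above the highest CHAR steer. Its log2FC was -1.05 ± 0.31 and its FDR 0.0494, and the FDR was 0.114 without F36, 0.13 without F43, 0.102 without F48 and 0.158 without F48 and F11. TM7SF2, a sterol reductase, and LSS, lanosterol synthase, did not pass the test (log2FC -0.45 ± 0.26 and -0.31 ± 0.25, FDR 0.284 and 0.455), although TM7SF2 passed without F33 (FDR 0.0627). The median log2FC of the 3 was -0.45, beside -0.28 over the 238 genes with a symbol, from which they come, and 0.00098 over all genes tested.

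Other lists of lipid metabolism gave no call among their matched members, which were few. ACLY, which makes cytosolic acetyl-CoA from citrate for fatty acid synthesis, ranged from 217 to 1201 CPM in CHAR (median 538) and from 256 to 2245 CPM in KC (median 1186), and the log2FC of -0.73 ± 0.49 did not pass (FDR 0.365). SREBF1, a transcription factor of lipogenic genes, was at 132 to 307 CPM and 117 to 399 CPM (FDR 0.697). These 2 were the members matched by exact symbol in a list of 20 genes of fatty acid synthesis and desaturation, with a median log2FC of -0.27. A further member, SLC25A1, is spelled Slc25a1 in the symbol source and was missed by the match. It was at 167 to 711 CPM in CHAR and 307 to 932 CPM in KC, and no list count or median includes it. For lipid droplets and lipolysis, 2 of 20 members were tested. CIDEA, a lipid droplet protein, was at 19.3 to 63.3 CPM in CHAR and 20.6 to 100.1 CPM in KC, and G0S2, an inhibitor of adipose triglyceride lipase, at 21.5 to 225 CPM and 25.9 to 420.4 CPM (FDR 0.811 and 0.881). PDK4, a kinase that restrains pyruvate dehydrogenase and the 1 tested gene of 22 in a list of fatty acid oxidation, had medians of 1237 CPM in CHAR and 666 CPM in KC with wide overlap (FDR 0.373, and 0.0936 without F10).

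Lists of 18 genes of retinoid handling, 18 hormone receptors and insulin response genes, 27 extracellular matrix genes and 22 genes of antigen presentation had 1, 2, 1 and 1 tested members, and none of these passed. CYP26B1, which breaks down retinoic acid, had an FDR of 0.388, LEPR, the leptin receptor, 0.754, SLC2A1, a glucose transporter, 0.852, and THBS2, a matrix glycoprotein, 0.218. SLC2A1 reached 276 CPM in F48 and 9.04 to 29.4 CPM in the other CHAR steers. BOLA-DQB, a class II histocompatibility gene that varies between alleles in cattle, varied widely between steers, at 0.0907 to 29.4 CPM in CHAR and 0 to 67.6 CPM in KC (FDR 0.46). In all, 33 lists holding 574 different genes had been set up. By exact symbol, 33 of these genes were matched to an identifier and 32 of them were tested, SLC25A1 not included. Of the 32, 4 were lower and 0 higher in CHAR at FDR below 0.1 by edgeR. These 4 are 12.5% of the matched list genes tested, near the 14.4% called over all genes (7.61% lower and 6.75% higher). Of the lists, 13 had no member with an identifier, the 16 adipocyte identity genes among them, so that the tissue label could not be checked against the defining adipocyte markers. CIDEA, G0S2, ACLY and SREBF1 were detected in every steer.

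PRG4, HPCAL4, SLC35E4 and C18H19orf48 were also called lower in CHAR. PRG4 (ENSBTAG00000011932), lubricin, a secreted proteoglycan, was at 0.533 to 6.1 CPM in CHAR (median 1.46) and 1.82 to 15.1 CPM in KC (median 9.78), with a log2FC of -2.16 ± 0.57 and an FDR of 0.0347. It was above the highest CHAR steer in 6 of 8 KC steers, its FDR passed 0.1 under limma-voom and without F8, F10 and F14, and it lies across another gene, TPR, in the RefSeq annotation. HPCAL4 (ENSBTAG00000014538), a calcium-binding protein of the neuronal sensor family, was at 0.978 to 3.11 CPM and 1.99 to 5.7 CPM (log2FC -1.18 ± 0.33, FDR 0.041). SLC35E4 (ENSBTAG00000002385), a member of a transporter family, was at 0.222 to 2.18 CPM and 0.552 to 7.55 CPM (log2FC -1.46 ± 0.43, FDR 0.0528), with FDR values of 0.105, 0.128 and 0.103 without F36, F43 and F48. C18H19orf48 (ENSBTAG00000011079) was at 2.77 to 14.6 CPM in CHAR and 9.09 to 43.6 CPM in KC (log2FC -1.24 ± 0.30, FDR 0.0229). In RefSeq, 4 further loci overlap it, and reads that overlapped more than 1 gene were counted on none. At FDR alone, SLC7A1, a transporter of cationic amino acids, was at 16.4 to 48.3 CPM in CHAR and 25 to 75.2 CPM in KC (log2FC -0.75 ± 0.21, FDR 0.0401, and 0.103 without F43).

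Higher in CHAR with both limits were LOC540403, LOC505479, KIAA1755 and KCNA5. LOC540403 (ENSBTAG00000003047) was at 1.44 to 10.9 CPM in CHAR (median 5.21) and 0.353 to 2.21 CPM in KC (median 1.01), with 4 of 6 CHAR steers above the highest KC steer, and its log2FC was 2.34 ± 0.54 (FDR 0.0193). LOC505479 (ENSBTAG00000027899), named TTC41 in RefSeq, was at 4.44 to 11.4 CPM and 0.755 to 6.65 CPM (log2FC 1.57 ± 0.41, FDR 0.0331), which was 0.109 without F8, F10 and F14. KIAA1755 (ENSBTAG00000019378) was at 2.22 to 18.8 CPM and 0.944 to 5.86 CPM (log2FC 1.41 ± 0.37, FDR 0.0328). The top value of KIAA1755 was that of F47, without which its FDR was 0.114, and its FDR was 0.154 under limma-voom and 0.116 without the RFI term. KCNA5 (ENSBTAG00000007553), a voltage-gated potassium channel, was at 2.55 to 7.53 CPM and 0.895 to 7.48 CPM, with a log2FC of 1.03 ± 0.37 just inside the FDR limit (0.0976). The exact permutation p for KCNA5 was 0.0523, and its call was kept in 2 of the 14 fits that left out 1 steer (those without F16 and F47) and in 5 of 12 other alternatives. OCLN (ENSBTAG00000000561), the tight junction protein occludin, was higher at FDR alone, at 10.3 to 17.8 CPM against 4.42 to 15.2 CPM (log2FC 0.68 ± 0.21, FDR 0.0642), and OCLN lost that call without F1, F7, F36, F43 or F46, with FDR up to 0.147, and with the exact test, without the RFI term and without F48 and F11 together (FDR up to 0.194).

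Genes without a name whose groups did not overlap are given by their identifiers. ENSBTAG00000045747 was at 0 to 0.635 CPM in CHAR, at or near its detection floor, and 1.31 to 7.06 CPM in KC (log2FC -3.45 ± 0.57, FDR 0.00495), and ENSBTAG00000047540 was at 0 to 0.363 CPM and 0.662 to 2.38 CPM (log2FC -3.09 ± 0.44, FDR 0.00155). ENSBTAG00000002670 was higher in CHAR at 33.7 to 88.7 CPM against 7.77 to 31.1 CPM (log2FC 1.71 ± 0.32, FDR 0.00882), and ENSBTAG00000004019 at 2.15 to 4.1 CPM against 0.441 to 1.66 CPM (log2FC 1.60 ± 0.27, FDR 0.00505). Both genes lower in CHAR stayed below 1 CPM in every CHAR steer and so passed the filter through KC steers alone. All 4 were named for groups that do not overlap, which fixes their order. ANG steers reached into both ranges, at 0.194 to 2.85, 0 to 2.23, 23.3 to 88.7 and 0.681 to 2.24 CPM.

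**Figure D3:**
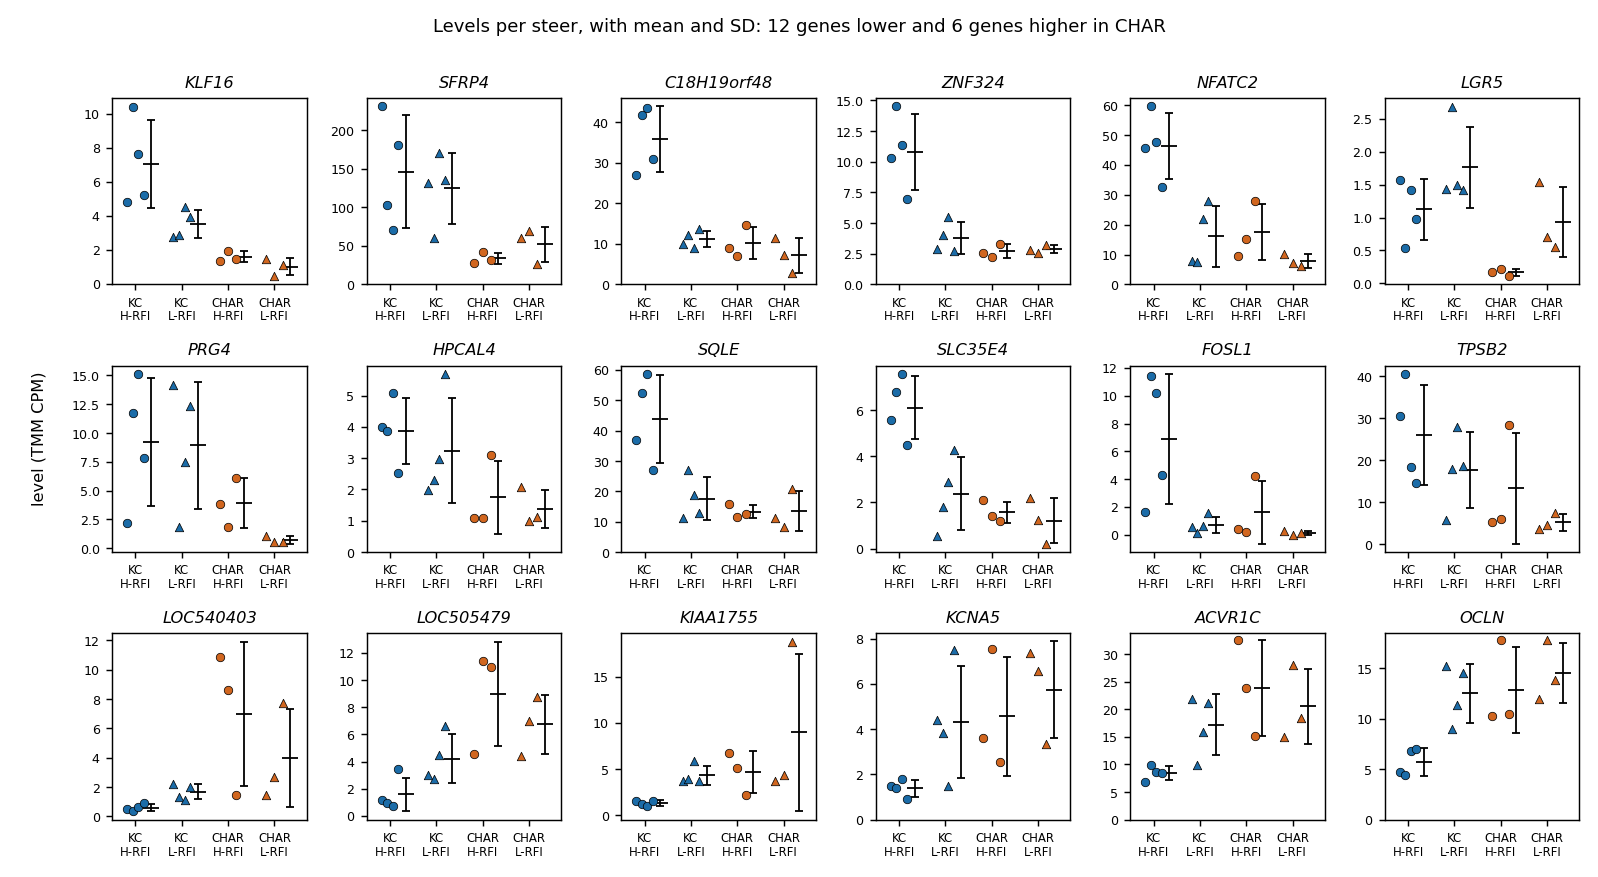
Level (TMM CPM, linear axes) of 18 genes in each steer, with KC in blue, CHAR in orange, circles for H-RFI, triangles for L-RFI and bars for mean and SD in each breed and RFI group (n = 4 KC, n = 3 CHAR). The first 12 genes are lower and the last 6 higher in CHAR, and the mean of H-RFI KC steers is the highest of the 4 groups for ZNF324, C18H19orf48 and SQLE.

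Levels within each RFI group were also compared. For ZNF324 the means were 10.8 ± 3.12 CPM (SD, n = 4) in H-RFI KC, 3.78 ± 1.28 in L-RFI KC (n = 4), 2.73 ± 0.546 in H-RFI CHAR and 2.87 ± 0.321 in L-RFI CHAR (n = 3 each). The 4 H-RFI KC steers were the highest, and the L-RFI KC steers F11 (4.03 CPM) and F14 (5.48 CPM) also lay above every CHAR steer. SQLE had 43.8 CPM in H-RFI KC and 17.6, 13.3 and 13.5 CPM in L-RFI KC, H-RFI CHAR and L-RFI CHAR, and C18H19orf48 had 35.8 CPM against 11.2, 10.2 and 7.16 CPM. ACVR1C had its lowest mean in H-RFI KC, with 8.47 CPM in H-RFI KC against 17.2, 23.8 and 20.5 CPM. KLF16 and SFRP4 had lower means in CHAR in both RFI groups, although no gene passed the test within L-RFI steers, with KLF16 at 7.02 and 3.51 CPM in H-RFI and L-RFI KC, 1.57 CPM in H-RFI CHAR and no more than 1.45 CPM in any L-RFI CHAR steer, and SFRP4 at 146 and 125 CPM against 33.8 and 52 CPM. KLF16 was named because its groups do not overlap over all steers, so that its separation within L-RFI was fixed by that choice. For SFRP4, the L-RFI KC steer F11 (60.5 CPM) lay below the L-RFI CHAR steer F46 (69.7 CPM). PRG4 had KC means of 9.2 and 8.94 CPM and CHAR means of 3.93 CPM in H-RFI and 0.725 CPM in L-RFI steers.

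Tested within H-RFI steers (3 CHAR against 4 KC), 1274 genes passed an FDR below 0.1 (9.22% of those tested), 615 higher and 659 lower in CHAR. Within L-RFI steers, at the same group sizes, none did (0%), with 1358 genes at an unadjusted p under 0.05 in edgeR's quasi-likelihood test against 3340 in H-RFI. By edgeR's likelihood ratio test, 1815 genes were called in H-RFI and 231 in L-RFI. DESeq2 called 2076 in H-RFI and 293 in L-RFI. The test of the difference itself, the breed by RFI interaction, called no gene (0%), with 930 genes at an unadjusted p under 0.05, 21 calls by the likelihood ratio test and 37 by DESeq2, so that a difference between the RFI groups was not shown for any single gene by the main test. Median absolute log2FC over all genes tested was 0.25 within H-RFI and 0.18 within L-RFI steers. The H-RFI count rested on single steers, since it fell to 0 without F36, 2 without F43, 325 without F7, 518 without F8 and 659 without F1. All 208 genes called over both groups had the same sign within each, which their selection favours, and 135 of them had the larger absolute log2FC within H-RFI (8478 of all 13816 did).

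ZNF324 had a log2FC of -1.98 ± 0.29 within H-RFI (FDR 0.0425) and -0.40 ± 0.32 within L-RFI (FDR 0.72), with an interaction FDR of 0.592. KLF16 had -2.15 ± 0.36 (FDR 0.0434) and -1.80 ± 0.43 (FDR 0.292), and PRG4 had -1.23 ± 0.60 (FDR 0.245) and -3.59 ± 0.71 (FDR 0.219). The study had chosen most genes with a symbol for RFI differences in these steers, so their unequal breed differences between RFI groups are not independent evidence.

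**Figure D4:**
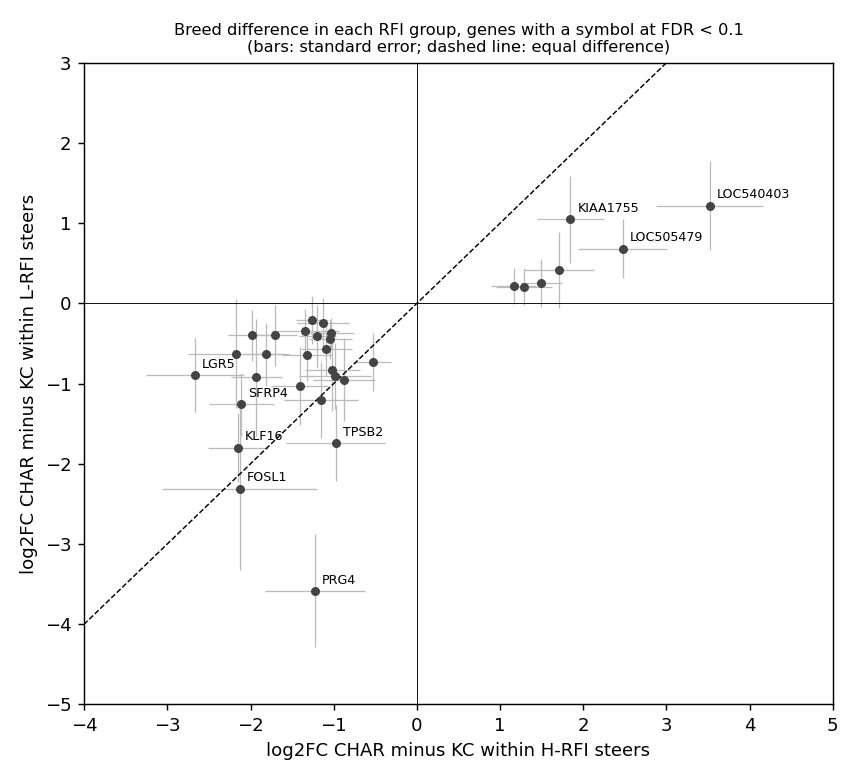
Log2FC (CHAR minus KC) within H-RFI steers (x axis) and within L-RFI steers (y axis) for the 32 genes with a symbol at FDR below 0.1, with standard errors as bars and equal differences on the dashed line. Most points lie closer to 0 on the L-RFI axis. PRG4 (-1.23 within H-RFI, -3.59 within L-RFI) and TPSB2 are among those further from 0 on it. Points below the line also include genes higher in CHAR with a smaller difference within L-RFI, such as ACVR1C.

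Markers of other cell types were few but uneven between steers. Mast cells were represented by TPSB2, a tryptase of their granules, and HDC, which makes histamine, 2 of 10 list members. TPSB2 (ENSBTAG00000007325) was called lower in CHAR, at 3.72 to 28.5 CPM (median 5.75) against 5.85 to 40.5 CPM in KC (median 18.5), with a log2FC of -1.33 ± 0.43 and an FDR of 0.0698. The value of 28.5 CPM was that of F48, the other 5 CHAR steers lay at or below 7.53 CPM, and ANG steers ranged from 4.99 to 39.3 CPM. HDC did not pass (log2FC -0.60 ± 0.52, FDR 0.496) and was also highest of the CHAR steers in F48, at 10.6 CPM. The summed level of both was 5.08 to 39.2 CPM in CHAR and 6.73 to 46.5 CPM in KC. In whole tissue, fewer cells of a type and less RNA per cell cannot be told apart. The call of TPSB2 was lost without F1, F7, F14, F33, F36, F43 or F46, with FDR up to 0.148, without the RFI term (0.122) and with RFIfat in kg as the term (0.102). Tryptase genes are near-identical copies, and reads that align to more than 1 place were counted on no gene.

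Striated muscle genes NEB and TTN, 2 of 21 list members, summed to 64 to 157 CPM in CHAR and 65.7 to 2602 CPM in KC. The high value was that of F11, with 2398 CPM of TTN and 204 CPM of NEB, and the next KC steer stood at 282 CPM in sum. Neither gene passed (FDR 0.219 and 0.22), although both did with the exact test, which has no RFI term (0.0634 and 0.0897). Without F11, 254 genes were called between the breeds in place of 208. PRX, which encodes a myelin protein of Schwann cells, stood at 1.17 to 31.2 CPM in CHAR (median 1.47) and 1.41 to 4.99 CPM in KC (median 2.37) and did not pass (FDR 0.341). Its high CHAR values were those of F33 (31.2 CPM) and F46 (5.24 CPM), and the other 4 CHAR steers lay at or below 1.55 CPM.

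Smooth muscle and pericyte genes (4 of 12 members, ACTA2 the most abundant) summed to 94.4 to 728 CPM in CHAR and 137 to 449 CPM in KC, with the highest value again in F33. ACTA2, DES, ACTG2 and KCNMB1 did not pass (FDR 0.8, 0.473, 0.766 and 0.354), and reads that align to more than 1 of the near-identical actins were counted on none. KCNMB1, a subunit of calcium-activated potassium channels, had the smallest interaction FDR of all genes tested (0.241), at 20.3 ± 1.59 CPM in L-RFI CHAR and 8.44 ± 2.41 CPM in L-RFI KC against 7.94 ± 1.42 CPM and 11.3 ± 1.44 CPM in H-RFI steers. PI16, a marker of fibroblast progenitors and the 1 member of 9 with an identifier, was at 54.3 to 138 CPM in CHAR and 66.8 to 433 CPM in KC, with 6 of 6 CHAR steers below the KC median and an FDR of 0.132. PI16 passed the FDR limit without F1 (0.0678), with the likelihood ratio test (0.0833) and with the exact test (0.0917). PROX1 of lymphatic endothelium (1 of 11), PERP of epithelia (1 of 10) and IGHM of B and plasma cells (1 of 10) had FDR values of 0.507, 0.235 and 0.974. PERP was at 0.272 to 0.978 CPM in 5 CHAR steers, all below the lowest KC steer (1.21 CPM), and at 4.55 CPM in F48. Without F48, PERP was called lower in CHAR (log2FC -2.10, FDR 0.0295), as it was without F48 and F11 together (FDR 0.0238). CIDEA and COX8B, 2 of 9 genes of brown or beige adipocytes, summed to 27.1 to 81 CPM in CHAR and 22.6 to 105 CPM in KC. Macrophage, T and NK cell and red blood cell lists had no member with an identifier here. The part of these cell types in the breed differences was not tested.

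**Figure D5:**
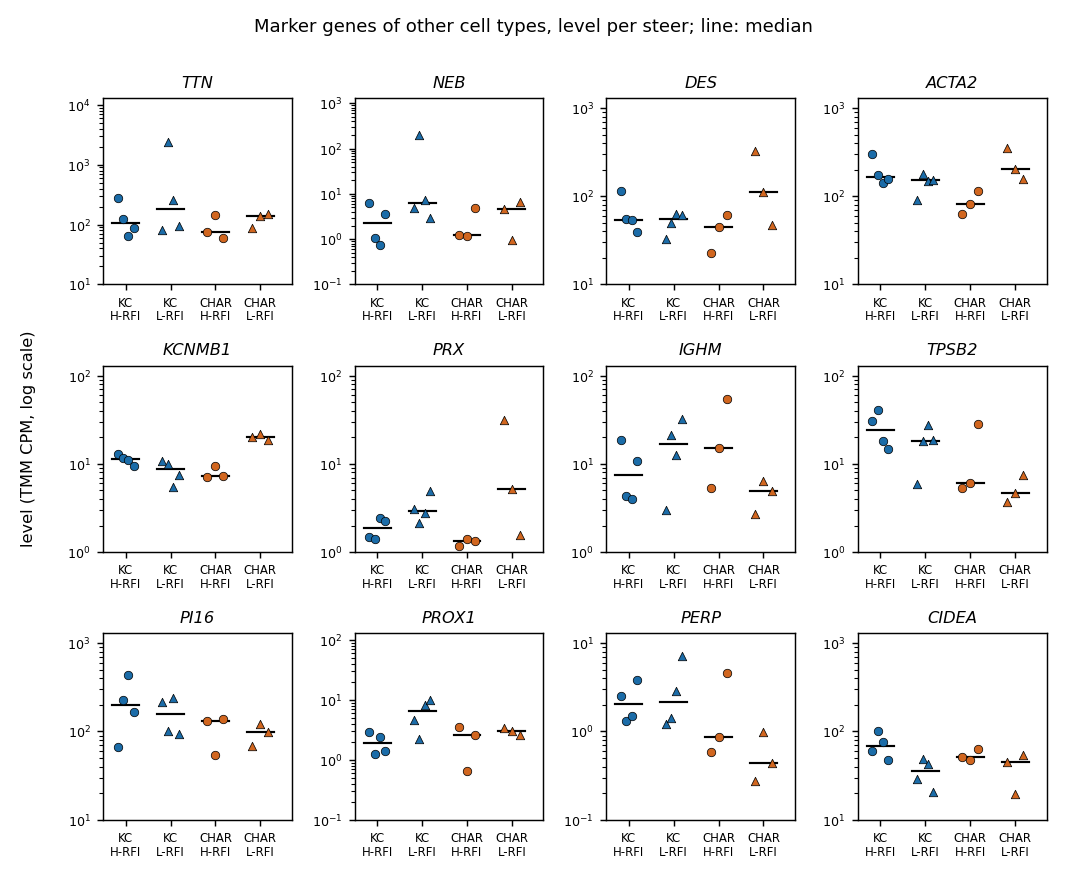
Level (TMM CPM, log axes) of 12 marker genes of other cell types in each steer, with KC in blue, CHAR in orange, circles for H-RFI, triangles for L-RFI and a line at each median. Single steers stand apart, with 2398 CPM of TTN in KC steer F11, 31.2 CPM of PRX in CHAR steer F33 and 28.5 CPM of TPSB2 in CHAR steer F48.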

How the data were processed

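The authors trimmed reads of stranded, rRNA-depleted libraries (paired, 100 bp) with fastq-mcf, aligned them to UMD3.1 with TopHat2 2.0.9, used SAMtools 1.1, and deposited raw counts per Ensembl gene from HTSeq 0.6.1, without normalization. Annotation version and strand setting are not given in the sources used here. Whether reads of overlapping genes on opposite strands were separated in the counts is therefore not known. The 5 summary lines of the table were kept out of library sizes and tests. Reads on no gene were 57.5% to 63.5% of uniquely aligned reads in the 14 steers. No columns were identical.

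Genes exceeding 1 CPM in 6 or more of the 14 steers were tested on breed, with RFI group as covariate, by edgeR 4.0.16 (quasi-likelihood, TMM, R 4.3.3, limma 3.58.1). Calls needed an FDR below 0.1 and an absolute log2FC of at least 1. Standard errors are the absolute log2FC divided by the square root of the quasi-likelihood F. Breed was also tested within each RFI group and in interaction with it. Single values were tested by exact permutation of log2(TMM CPM + 0.5) or of the library measure over all 3003 assignments, 2-sided by the absolute difference, with scipy 1.17.1 in python 3.11.15 (also matplotlib 3.10.9, pandas 2.3.3, numpy 2.4.6). Levels of ANG steers come from TMM factors over all 22 steers. Scripts were tested on simulated data. Symbols came from the study's own gene table, which pairs 242 identifiers with names (its fold changes were not used), and overlaps of genes from RefSeq ARS-UCD2.0, by gene ID. Besides PRG4 and C18H19orf48, other loci overlap LGR5, KIAA1755 and SLC7A1 (1 each) and OCLN (3) among the genes with a symbol described above that passed the FDR limit. KCNMB1, which did not pass, overlaps KCNIP1. Gene lists were matched by exact symbol, including letter case, so that SLC25A1 (Slc25a1 in the symbol source) was missed.

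Named were up to 10 called genes with a symbol in each direction, non-overlapping groups first (by fold, with a mean of at least 1 CPM in the higher breed) and then by FDR, without LOC names, list members with an FDR below 0.1, the most abundant member of each marker list, any gene with an interaction FDR below 0.1, and 2 genes without a symbol each way, where up to 3 had been planned. LOC540403, LOC505479, ARC, METRNL, SLC7A1, ACVR1C, OCLN, ZNF84 and list members that did not pass were added after their values, also under the alternatives, were seen. A marker gene that the rule names is not reported here. The members and lists were chosen with earlier results of these data known. Alternatives were DESeq2 1.42.0, edgeR's likelihood ratio and exact tests, limma-voom, RLE and upper quartile factors, other filters, limits and covariates, all 22 steers, and leaving out each steer. Leaving out F48 and F11 together, leaving out F8, F10 and F14, DESeq2 within RFI groups and for the interaction, and the share of ambiguous reads were chosen after seeing the data.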

Additional observations from a re-analysis of the deposited data

Results flagged for a closer look

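A steer far from the others of its breed, by the gap to its nearest neighbour relative to the range of the breed, was found in 10 of the 114 groups of values examined (53 genes on the log2 scale and 4 library measures in each breed). Chance gives about 1 in 20. Of these, 5 were in CHAR steer F48, which was high for FOSL1 (4.21 CPM), METRNL (91.4 CPM), PERP (4.55 CPM), SLC2A1 (276.4 CPM) and TPSB2 (28.51 CPM). KC steer F11 was high for TTN (2398 CPM) and NEB (204.0 CPM). Among the other CHAR steers, F46 was low for CIDEA (19.29 CPM), F43 for PROX1 (0.6457 CPM) and F47 for SLC35E4 (0.2215 CPM, 2 counts). The lowest values of PROX1 and SLC35E4 rest on few reads.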

How the results depend on the processing

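The 208 genes called with both limits became 117 with CPM above 1 required in all 14 steers, 317 without F48 and F11, and 1985 without the fold limit, and 138 to 268 when 1 steer was left out. Under the other alternatives run for this count it stayed between 141 and 303. The 1985 genes at FDR alone became 945 without F8, F10 and F14 and 1102 to 2075 with 1 steer left out, and stayed between 1575 and 2587 otherwise. The interaction gave 37 genes with DESeq2, 21 with the likelihood ratio test and 0 to 2 with 1 steer left out. The 1274 genes within H-RFI steers became 2076 with DESeq2, 1815 with the likelihood ratio test and 0 to 1692 with 1 steer left out. The 0 within L-RFI steers became 293 with DESeq2, 231 with the likelihood ratio test and 0 to 3 with 1 steer left out. Fits with fewer steers have less power by construction, and the cause of the other shifts was not tested.

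Differences in library measures (CHAR minus KC), with 1 steer left out, ranged from -410500 to 322300 for the total gene count, -45.77 to 14.83 for genes above 1 CPM, -2.085 to -0.9752 points for the share on genes and 0.6731 to 0.8651 points for ambiguous reads. Of the 53 genes followed, 26 passed the FDR limit, none of these changed direction, and 11 kept an FDR below 0.1 in every alternative that tested them, whatever the fold. KLF16, SFRP4, ZNF324, METRNL, HPCAL4, C18H19orf48 and LOC540403 were among the 11. KLF16, LOC540403, ENSBTAG00000004019, ENSBTAG00000045747 and ENSBTAG00000047540 were not tested where CPM above 1 was required in all 14 steers. Of the genes that did not pass, PERP, PI16, PDK4, TM7SF2, FSTL3, NEB and TTN passed in at least 1 alternative in the same direction. Others changed sign in log2FC as follows. G0S2 was at -0.070 with the exact test and without the RFI term and -0.041 under limma-voom, IGHM at 0.15 with the exact test, 0.14 without the RFI term and 0.060 with RFIfat in kg, BOLA-DQB at 1.18 and SLC2A1 at -0.30 under limma-voom, and SLC2A1 at -0.86 without F48 and F11. Without F8, F10 and F14, ACTG2 was at -0.13 and LEPR at -0.020. With 1 steer left out, log2FC ranged from -0.46 to 0.057 for ACTA2, -0.20 to 0.62 for ACTG2, -3.47 to 0.28 for BOLA-DQB, -0.28 to 0.011 for CIDEA, -0.041 to 0.88 for DES, -0.10 to 0.46 for G0S2, -0.93 to 0.31 for IGHM, -0.24 to 1.15 for PRX and -0.93 to 0.44 for SLC2A1.

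Depth limits LGR5, FOSL1, SLC35E4, ARC, KLF16, PRG4, LOC540403 and both unnamed genes lower in CHAR, which had few counts in some steers. Breed cannot be told apart from sire, herd or birth year, nor fully from the low share of ambiguous reads in F8, F10 and F14, and most called genes have no name here.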
